A study of Mus musculus with 3 samples.

Results

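The ligands of the tumour necrosis factor (TNF) superfamily described here are the 10 genes Lta, Ltb, Tnf, Fasl, Cd40lg, Tnfsf8, Tnfsf10, Tnfsf11, Tnfsf14 and Cd70. They were picked out by symbol among the 50600 genes of the count tables, and all 10 were found once each. Each sample was RNA of primary T-helper 1 (Th1) cells of the mouse strain C57BL/6NJ, with age recorded as unknown and sex as not collected. The file headers add a time of 72 hours and the word sorted, and the linked differentiation protocol is one for CD4+ T cells. The assay label reads total RNA-seq, although a polyA library protocol is linked to each sample. The 3 libraries are numbered biological replicates 1, 2 and 3 and share 1 donor record, so the spread between them may be partly technical. No other cell fate, unstimulated control or time point belongs to the series, so the comparisons are between genes and between libraries.

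TNF superfamily ligands are mostly membrane proteins of the cell surface that act as trimers, and some are also released in soluble form. Each binds receptors of the TNF receptor superfamily, which recruit TRAF adaptors and activate NF-kappaB, or recruit death domain adaptors and caspases. Activated CD4 T cells use several of them to instruct other cells. CD40 ligand licenses B cells, dendritic cells and macrophages, TNF and lymphotoxin act on inflammation and lymphoid tissue, and Fas ligand can kill. Lymphotoxin alpha, the product of Lta, is secreted as a trimer of its own or held at the surface in a complex with lymphotoxin beta, the product of Ltb.

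Lta, Tnf and Ltb lie side by side on chromosome 17 within 10.9 kb, and their upstream sequences are shown because these neighbours had very unequal levels. Each sequence is the 150 bases before the gene as deposited, on the strand of the gene, from the RefSeq promoter table of GRCm38.p6, the same assembly as mm10. Capitals mark matches to TATAAA on the strand of the gene or to the loose NF-kappaB pattern of 3 G, any 5 bases and 2 C, on either strand.
Lta, chr17:35205352-35205501, minus strand: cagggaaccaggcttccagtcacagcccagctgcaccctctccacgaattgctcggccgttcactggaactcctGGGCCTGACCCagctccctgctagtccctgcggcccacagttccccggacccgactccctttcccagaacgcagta
Tnf, chr17:35202008-35202157, minus strand: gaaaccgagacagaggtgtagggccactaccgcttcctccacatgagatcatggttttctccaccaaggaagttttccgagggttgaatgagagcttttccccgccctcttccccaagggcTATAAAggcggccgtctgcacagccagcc
Ltb, chr17:35194289-35194438, plus strand: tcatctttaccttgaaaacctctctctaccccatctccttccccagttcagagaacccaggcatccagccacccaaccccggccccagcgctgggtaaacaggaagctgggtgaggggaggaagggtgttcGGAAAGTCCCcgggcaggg

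The NF-kappaB pattern matched 2 times, with overlap, in the Lta window, 1 time in that of Ltb and not in that of Tnf. The Tnf window held a TATAAA whose first base lies 29 bases before the start of the gene, and the windows of Lta and Ltb held none. Of 27025 promoters, 5.26% held TATAAA and 35.3% the loose NF-kappaB pattern in the 150 bases before the start set by the RefSeq entry. The windows printed above end at the gene as deposited, so the ends can differ between the windows compared. A match is only a match of letters. The table held an entry for 8 of the 10 genes, with none for Cd40lg and Cd70.

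The mRNAs of some cytokines carry AU-rich elements behind the stop codon, which RNA-binding proteins use to shorten the life of the mRNA. The nonamer TTATTTATT was searched on the transcript strand behind the stop codon, in the coding transcript with the longest such stretch (GENCODE mouse release 21). It was found in 2 of the 10 ligands, Tnf with 5 overlapping copies in 764 bases and Lta with 1 copy in 572 bases, against 7.68% of 20989 coding genes. A stretch of 30 bases is shown for each with the nonamers in capitals and with T for U; that of Tnf holds 4 of its 5 copies.
Tnf, chr17:35199680-35199709, minus strand: taTTATTTATTATTTATTTATTATTTATTt
Lta, chr17:35203396-35203425, minus strand: gaaaagttaagTTATTTATTtatagagaat

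The other 8 ligands held no copy of the nonamer, Ltb among them with 174 bases behind its stop codon. By mean level both genes that held it were among the 3 highest of the 10, although Tnf did not differ from Tnfsf8, the next in order, beyond its spread.

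Libraries held 4482916 (replicate 1), 266790 (replicate 2) and 3733531 counts (replicate 3). Levels are given as TPM, the count per exon length scaled to a fixed total in each library. Because replicate 2 was shallow, 3 counts there were worth 4.41 to 27.6 TPM for the 10 ligands, against 0.272 to 1.75 TPM in the others. Fragments were counted with a strand setting of 1, and several values bear on what that strand is. Genes with an exon that overlaps an exon on the other strand were 16.2% of all genes. Their part of all counts was 51.7% in replicate 1, 55.1% in replicate 2 and 66.5% in replicate 3. In the mitochondrial genome, mt-Nd6 received 18316, 1673 and 13631 counts, against 10721, 546 and 5027 for mt-Co1, which lies on the other strand. Levels are thus those of whichever strand was counted, and whether this is the strand of the RNA or its complement was not tested. None of the 10 ligands shares an exon base with any gene, on either strand. The level in bulk RNA cannot tell fewer cells with an mRNA from less of it per cell.

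All 10 ligands had a mean of at least 1 TPM, against 47.8% of the 21764 protein-coding genes. Of the 8 other mouse ligands examined, 2 reached it. The 10 were chosen with earlier results of these data known, so neither this count nor their share of the family is a test. Levels of the 10 ran from Lta at 1591 ± 483 TPM (SD, n = 3) to Tnfsf10 at 8.14 ± 5.76. Without the shallow replicate 2 the mean of Tnfsf10 was 4.86 and Cd70 was the lowest at 3.47 TPM. Summed over the 18 mouse ligands examined, the 10 genes held 98.9% ± 0.324 of the ligand TPM, and Lta by itself held 71.3% ± 2.19. The share of Lta was 71.2%, 73.6% and 69.2% in replicates 1, 2 and 3. Lta makes up most of the sum that it is divided by, and the scale of the library cancels, so no constancy is read from this.

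**Figure D1:**
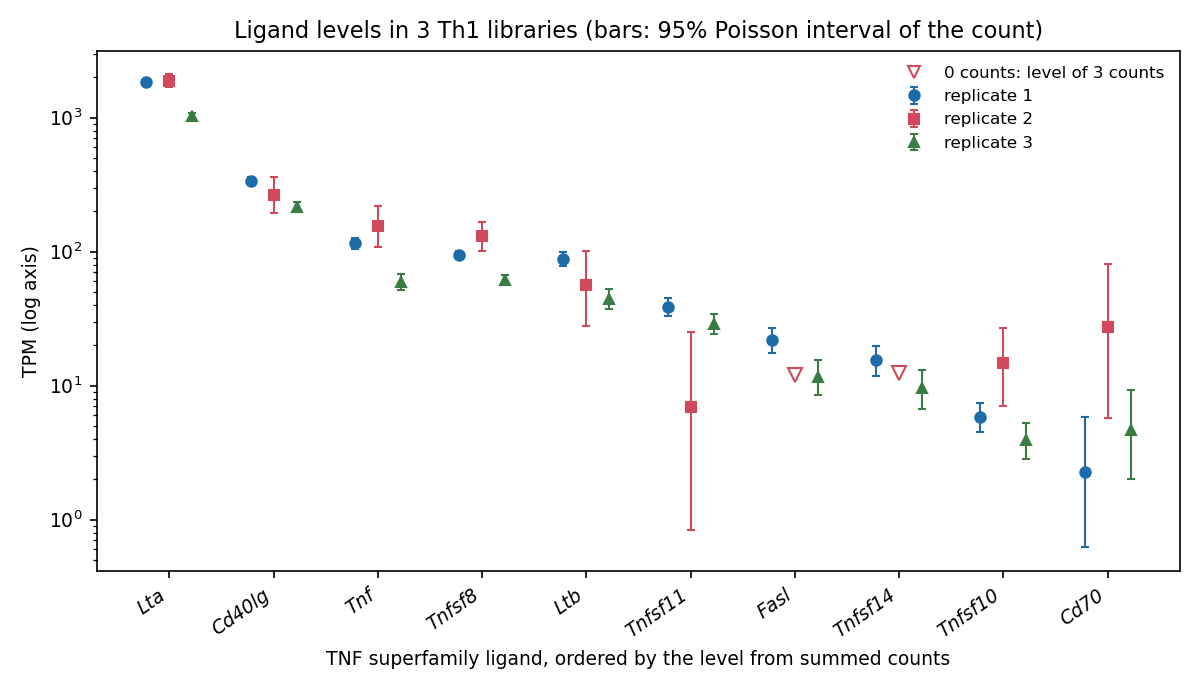
TPM (log axis) of each ligand in replicates 1, 2 and 3, ordered by the level from counts summed over libraries. Points are libraries, bars are 95% Poisson intervals of the count, and open triangles mark 3 counts where the count was 0; Lta lies above 1000 TPM in each library, and bars widen in replicate 2.

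The lymphotoxin and TNF genes are described first. Lta (ENSMUSG00000024402, chromosome 17, 35203165 to 35205351, minus strand) had 1854, 1886 and 1034 TPM in replicates 1, 2 and 3, from 5361, 337 and 2913 counts. Replicates 1 and 2 were alike and replicate 3 was lower, and every other ligand was below it in each library. By mean TPM, Lta ranked 20 among protein-coding genes without opposite-strand overlap, of which 7040 had at least 1 TPM. By the rule for likeness, the smallest Euclidean distance of log2(TPM + 1) over the 3 libraries, the ribosomal protein genes Rpl19 (0.163) and Rps23 (0.227) were among the 3 closest of 6543 such genes.

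Tnf (ENSMUSG00000024401, chromosome 17, 35199381 to 35202007, minus strand) encodes the cytokine that gives the family its name. It had 115, 156 and 59.6 TPM in replicates 1, 2 and 3, from 394, 33 and 199 counts. Replicate 3 was the lowest here too, and the 33 counts of replicate 2 have a 95% Poisson interval of 107 to 219 TPM, above that of replicate 3 (51.6 to 68.5). The genes closest to it by the same distance were Spag7 (0.0666), Sub1 (0.0778) and Iars (0.0886).

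Ltb (ENSMUSG00000024399, chromosome 17, 35194439 to 35196320, plus strand) had 88.3, 56.2 and 44.4 TPM, from 280, 11 and 137 counts. Replicate 1 was the highest, and the interval of replicate 2 (28.0 to 100.5 TPM) took in both other libraries.

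Within each library Lta was far above both of its neighbours. Lta had 16.1, 12.1 and 17.3 times the TPM of Tnf in replicates 1, 2 and 3, and 20.99, 33.6 and 23.3 times that of Ltb. On the log2(TPM + 1) scale the mean difference from Tnf was 3.89 ± 0.269 (SD, n = 3; limma, adjusted p = 0.000185), and Lta was higher in 3 of 3 libraries. From Ltb it was 4.64 ± 0.354 (SD, n = 3; limma, adjusted p = 0.000143), again in 3 of 3 libraries. These tests were fitted on 11594 genes, of which 98.1% were lower than Lta, so passing them is not particular to Tnf or Ltb. The spacer between Lta and Tnf is 1157 bases and that between Tnf and Ltb 3060 bases. Of the upstream windows printed above, that of Tnf therefore lies in the spacer towards Lta.

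The other genes within 20000 bases of the cluster were lower than Lta as well. Nfkbil1, which overlaps an exon on the other strand, had 51.7 ± 9.08 TPM, Lst1 14.8 ± 12.8, and the macrophage gene Aif1 0.422 ± 0.365. The microRNA genes Mir6974 and Mir6973a, which lie in introns of Lta and Ltb by the deposited exons, had 2, 0 and 1 counts and 1, 0 and 1 counts. Gm16181, on the strand opposite to Lta and Tnf, had 268 ± 164 TPM and is itself a gene with opposite-strand overlap.

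Cd40lg (ENSMUSG00000031132, chromosome X, 57212143 to 57224042, plus strand) encodes CD40 ligand, the surface signal of T-cell help, and was second at 273 ± 60.4 TPM. It had 336, 266 and 216 TPM in replicates 1, 2 and 3, from 878, 43 and 549 counts. It varied least of the 10 in relation to its mean, with a coefficient of variation of 22.1%. The T-cell surface gene Cd5 was the closest to it (0.0414), with 340, 273 and 216 TPM, followed by Eif3c (0.0904) and Eno1 (0.0936). The next genes in the neighbourhood, Gm14718 and Arhgef6, had 52.1 ± 8.67 and 23.0 ± 7.53 TPM.

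Tnfsf8 (ENSMUSG00000028362, chromosome 4, 63831308 to 63861347, minus strand) encodes CD30 ligand. It had 94.1, 130 and 61.5 TPM, from 749, 64 and 477 counts, so that replicate 2 was the highest and replicate 3 the lowest, as for Tnf. Cd40lg exceeded Tnfsf8 in 3 of 3 libraries by a mean of 1.55 ± 0.452 on the log2(TPM + 1) scale (SD, n = 3; limma, adjusted p = 0.00555), in a fit where 90.9% of genes were lower than Cd40lg.

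Cd70 (ENSMUSG00000019489, chromosome 17, 57145997 to 57149777, minus strand), the ligand of the costimulatory receptor CD27, rested on few fragments. It had 4, 3 and 8 counts, which are 2.27, 27.6 and 4.67 TPM in replicates 1, 2 and 3. The value in replicate 2 has a 95% Poisson interval from 5.69 to 80.6 TPM, which overlaps those of the other libraries (0.619 to 5.82 and 2.01 to 9.19). The mean of 11.5 ± 14.0 TPM fell to 3.47 without replicate 2, and counts summed over the libraries gave 4.19. Cd70 was the single ligand below the minimum mean of 10 counts for the tests across genes. Its log2(TPM + 1) lay below that of Cd40lg by a mean of 5.06 ± 1.74 (SD, n = 3), in 3 of 3 libraries. Without the count minimum the limma adjusted p was 0.00133.

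Fasl and Tnfsf10, whose products are best known as death ligands, were low. Fasl (ENSMUSG00000000817, chromosome 1, 161780689 to 161788495, minus strand), which encodes Fas ligand, had 21.7, 0 and 11.7 TPM, from 88, 0 and 46 counts. By the floor of 3 counts for a count of 0, replicate 2 allows up to 11.99 TPM, so a level like that of replicate 3 was not distinguishable from none at that depth. Tnfsf10 (ENSMUSG00000039304, chromosome 3, 27317028 to 27342427, plus strand), which encodes TRAIL, had 5.81, 14.7 and 3.92 TPM, from 64, 10 and 42 counts. Replicate 2 was the highest for Tnfsf10, and its interval (7.05 to 27.0 TPM) overlapped that of replicate 1 (4.48 to 7.42) but not that of replicate 3 (2.82 to 5.29).

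Fasl was above Tnfsf10 in replicates 1 and 3 and below it in replicate 2. The mean difference on the log2(TPM + 1) scale was -0.29 ± 3.19 (SD, n = 3; limma, adjusted p = 0.924). With Fasl as the reference, limma found 0 of 11594 genes lower than it (0%), and 1 at an unadjusted p under 0.05. The 0 counts of Fasl in replicate 2 enter every ratio of that fit. Without replicate 2 the difference was 1.55 (n = 2; limma, adjusted p = 0.0163), so the direction rests on that library.

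Tnfsf11 (ENSMUSG00000022015, chromosome 14, 78277445 to 78308043, minus strand) encodes RANKL, which drives osteoclasts and acts on dendritic cells. It had 38.7, 6.92 and 28.8 TPM, from 181, 2 and 131 counts. The 2 counts of replicate 2 have an interval from 0.838 to 25.0 TPM, which does not reach the 33.3 at the lower end of replicate 1 and slightly overlaps the 24.1 of replicate 3. Tnfsf11 and Tnfsf10 can both bind the decoy receptor osteoprotegerin. Their difference was 1.39 ± 2.05 on the log2(TPM + 1) scale (SD, n = 3; limma, adjusted p = 0.134), with Tnfsf11 higher in 2 of 3 libraries, and 25.3% of genes were lower than Tnfsf11 in that fit. The 2 counts of Tnfsf11 in replicate 2 enter every ratio of that fit, and limma gave each ligand in it the same standard error (0.768). Without replicate 2 the difference was 2.57 and passed the limma test. With n = 2 that test borrows its variance from the other genes of the fit, so little weight is put on it.

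Tnfsf14 (ENSMUSG00000005824, chromosome 17, 57189492 to 57194189, minus strand) encodes LIGHT, which shares the lymphotoxin beta receptor with the complex of lymphotoxin alpha and beta. It had 15.4, 0 and 9.51 TPM, from 60, 0 and 36 counts, and the same floor of 3 counts allows up to 12.5 TPM in replicate 2. Lta exceeded Tnfsf14 in 3 of 3 libraries, by a mean of 8.11 ± 2.40 on the log2(TPM + 1) scale (SD, n = 3; limma, adjusted p = 0.00173). That mean includes replicate 2, where Tnfsf14 had 0 counts, and was 6.72 without it. In replicates 1 and 3, where Tnfsf14 was counted, Lta had 120 and 109 times its TPM. Tnfsf14 and Cd70 lie in a second group of family genes on chromosome 17, 48.2 kb from end to end. The complement gene C3, next to Tnfsf14, had 0.406 ± 0.419 TPM.

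In the order of mean TPM, neighbours were said to differ beyond their spread where all libraries shared the sign and the mean difference was at least 2 SD. Only the first 2 steps met this. Lta was above Cd40lg by 2.51 ± 0.285 and Cd40lg above Tnf by 1.38 ± 0.551 on the log2(TPM + 1) scale (SD, n = 3), each in 3 of 3 libraries. Tnf and Tnfsf8 did not differ beyond their spread (0.17 ± 0.184, Tnf higher in 2 of 3), nor did Tnfsf8 and Ltb (0.58 ± 0.564) or Ltb and Tnfsf11 (1.54 ± 1.17), although the sign was shared by 3 of 3 libraries in the last 2 pairs. Among Tnfsf11, Cd70, Fasl, Tnfsf14 and Tnfsf10 no neighbours differed beyond their spread. With 3 libraries the smallest p of an exact sign-flip test is 0.25, so none is given.

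The place of the low ligands depended on the shallow library. Counts summed over libraries gave the order Lta, Cd40lg, Tnf, Tnfsf8, Ltb, Tnfsf11, Fasl, Tnfsf14, Tnfsf10 and Cd70. Replicate 1, which supplies most of the summed counts, had all 10 genes in those places, replicate 3 had 6 and replicate 2 had 5. In replicate 3 the departures were exchanges of neighbours, Tnf with Tnfsf8 and Tnfsf10 with Cd70.

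Differences between the libraries were tested per gene by a chi-square test on the counts, with library sizes scaled by TMM, and a gene was called where the highest library was also at least 2 times the lowest. This test compares the libraries and holds counting error only. Of the 9 ligands tested, 2 were called, Tnfsf11 (ratio 3.76, adjusted p = 0.0441 by the chi-square test) and Tnfsf10 (ratio 2.77, adjusted p = 0.0179 by the chi-square test), against 29.5% of the 11595 genes. Tnfsf11 was lowest in replicate 2 and Tnfsf10 highest in replicate 2. Without replicate 2, 0 of the 9 ligands were called, against 14.9% of 12257 genes. In both settings the share among the ligands was not above that of all genes.

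Some ligands fell short on the ratio rather than on the test. Lta had a ratio of 1.34 (adjusted p = 6.79e-28 by the chi-square test), with the lowest level in replicate 3, and Tnf a ratio of 1.93 (adjusted p = 0.000121 by the chi-square test). Fasl, with 0 counts in replicate 2, had a ratio of 1.77 by the floor of 3 counts (adjusted p = 0.0433 by the chi-square test). On this TMM scale the log2 ratio of replicate 1 to replicate 3 was 0.37 for Lta. Its median was 0.18 over 11594 genes and 0.30 over the 6932 of them with no opposite-strand overlap. With library totals in place of TMM, Tnf was called too, which made 3 of 9 ligands, against 32.1% of 11595 genes.

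Replicate 3 was lower than replicate 1 in 9 of the 10 ligands by TPM, and so were most genes. The log2 ratio of replicate 1 to replicate 3 had a median of 0.67 over the ligands and 0.65 over 11594 genes with at least 10 counts on average. It was largest for Ltb (0.99), Tnf (0.95) and Fasl (0.90), and -1.04 for Cd70. Scaled over genes with no opposite-strand overlap, the median was 0.02 over the ligands and 0.12 over 6932 genes, and 5 of 10 ligands were higher in replicate 1. On that scale Lta had 0.19, Tnf 0.29 and Ltb 0.34, while Cd40lg (-0.01) and Tnfsf8 (-0.04) were level. The scaling shifts every ligand by the same amount, so the ligands that changed sign, Cd40lg, Tnfsf8, Tnfsf10 and Tnfsf11, are those that were above 0 by less than the shift, and no direction is read for them. The share of counts in overlapped genes differs between them (51.7% and 66.5%); its part in the result was not tested.

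**Figure D2:**
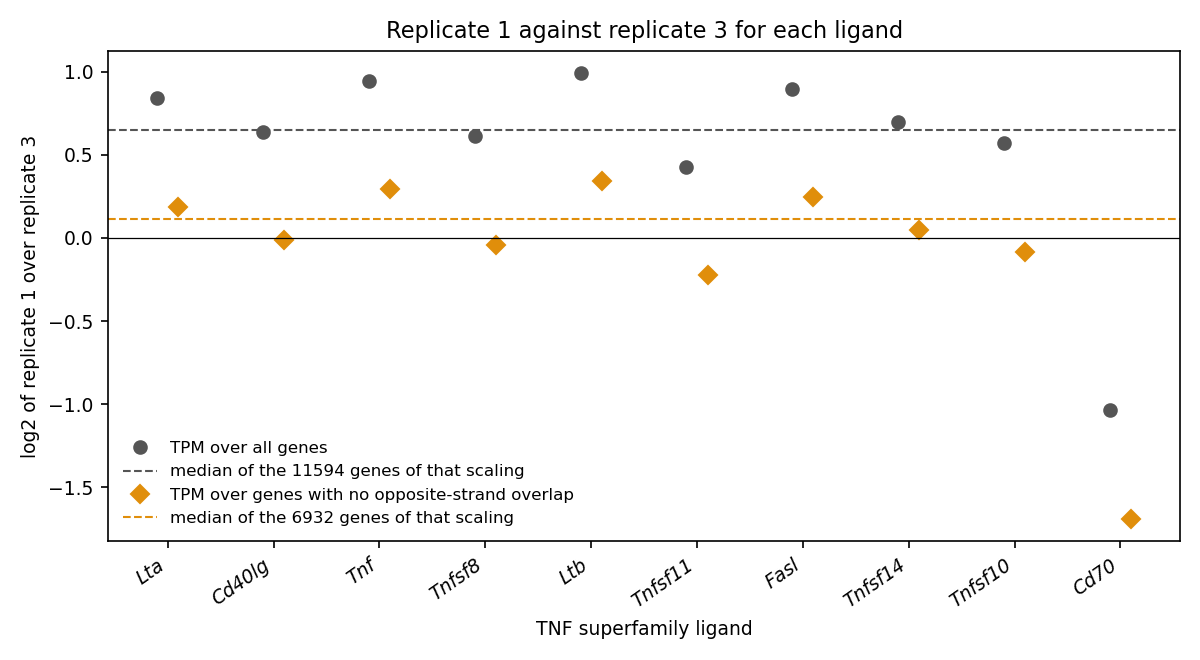
Log2 ratio of replicate 1 to replicate 3 for each ligand, from TPM over all genes (circles) and over genes with no opposite-strand overlap (diamonds); dashed lines are the medians of the genes of each scaling, 0.65 and 0.12. The ligands lie around the line of their scaling, apart from Cd70 with 4 and 8 counts.

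The other 8 ligands of the superfamily examined were low or not counted. Tnfsf9, which encodes the 4-1BB ligand, had 13.2 ± 5.46 TPM, from 33, 3 and 20 counts. Tnfsf4, which encodes the OX40 ligand, had 18.7, 0 and 10.1 TPM. The remaining 6 were below 1 TPM, with 0 counts in every library for Tnfsf13b, which encodes BAFF, and Tnfsf18. Of the 2 tested between libraries, 0 were called by the chi-square test.

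Of 13 receptor genes for the 10 ligands, 9 had a mean of at least 1 TPM, against 47.8% of protein-coding genes, and none reached the level of Tnf. Among the 9, Tnfrsf23, which has opposite-strand overlap, had 6, 1 and 6 counts. Its mean of 1.14 TPM fell to 0.734 without replicate 2. The highest were Cd27, the receptor of CD70 (31.9 ± 3.96 TPM; it shares exon bases with a gene on its own strand), Fas, the death receptor of Fas ligand (25.0 ± 11.6), Tnfrsf10b, which encodes the TRAIL receptor (19.3 ± 5.28), and Tnfrsf8, which encodes CD30 (15.9 ± 8.48). The TNF receptor genes Tnfrsf1a and Tnfrsf1b had 10.7 ± 6.68 and 9.69 ± 7.69 TPM. Tnfrsf14, the receptor gene HVEM, had 21.8, 0 and 14.0 TPM in replicates 1, 2 and 3.

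Receptors that other cells are known to carry were near the counting floor. Cd40, the receptor of CD40 ligand on B cells and myeloid cells, had 11, 0 and 4 counts (0.707 ± 0.78 TPM). Ltbr, the lymphotoxin beta receptor of stromal and myeloid cells, had 6, 0 and 2 counts. Tnfrsf11a, which encodes RANK, had 2, 0 and 1 counts, and Tnfrsf11b, the osteoprotegerin gene, 0 in every library. Between libraries 2 of 8 receptors tested were called by the chi-square test, Tnfrsf1b, highest in replicate 1, and Tnfrsf8, highest in replicate 2, a share not above the 29.5% of all genes.

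**Figure D3:**
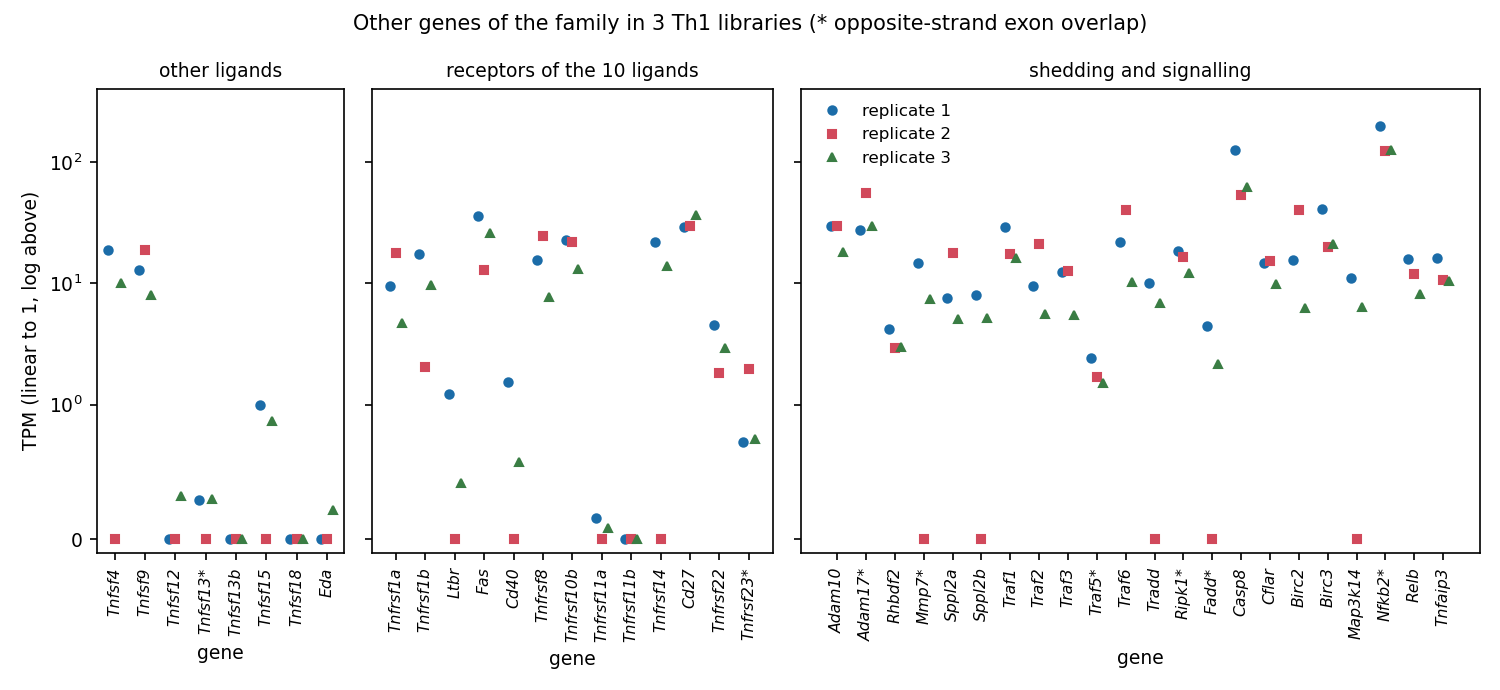
TPM (linear to 1, log above) of the other 8 ligands, 13 receptors and 22 genes of shedding and signalling in replicates 1, 2 and 3; an asterisk marks opposite-strand exon overlap. Points at 0 in replicate 2 are counts of 0 in the shallow library; of these genes Map3k14 was called between libraries by the chi-square test. Nfkb2 is the highest gene shown.

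Genes that release or relay these ligands were all counted in replicates 1 and 3. In replicate 2, Mmp7, Sppl2b, Tradd, Fadd and Map3k14 had 0 counts. Of these, Map3k14, with 152 and 85 counts in replicates 1 and 3, was called between libraries (ratio 3.06, adjusted p = 0.00809 by the chi-square test). Each of the 6 genes of shedding had a mean of at least 1 TPM, 2 of them, Adam17 and Mmp7, with opposite-strand overlap. Adam17, the protease that sheds TNF, had 37.5 ± 15.4 TPM and overlaps an exon on the other strand, and Adam10, which sheds several surface proteins, had 25.9 ± 6.71 with no overlap. All 16 signalling genes had a mean of at least 1 TPM, 4 of them with opposite-strand overlap. Nfkb2, a subunit of the noncanonical NF-kappaB pathway, was highest (148 ± 42.1 TPM; overlapped), followed by the initiator caspase gene Casp8 (80.9 ± 39.8) and the inhibitor of apoptosis gene Birc3 (27.3 ± 11.6). The adaptor genes Traf6 and Traf1 had 24.2 ± 15.2 and 20.9 ± 7.04 TPM, and Tnfaip3, which encodes the NF-kappaB inhibitor A20, 12.4 ± 3.17. Between libraries, 2 of 6 shedding genes and 5 of 16 signalling genes were called by the chi-square test, shares near the 29.5% of all genes.

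The label was checked against marker lists, since B cells, macrophages and natural killer cells also make ligands of this family. All 8 T-cell markers and all 6 Th1 markers had at least 1 TPM, with summed levels of 1041 to 1924 and 543 to 1211 TPM in a library. Ifng, at 604 ± 252 TPM, made up most of the Th1 sum, and Cxcr3 rested on 8, 0 and 6 counts. Of 6 B-cell markers 2 reached 1 TPM, with a sum of 14.7 to 54.2 TPM, and Ms4a1 and Pax5 had 0 counts in every library. Ighm, the highest of them, had 193, 1 and 63 counts, and Cd79a, the other, 11, 2 and 31 (8.23 TPM on average). The part of B cells in the ligand levels was not tested. Ighm and Cd79a were both called between libraries by the chi-square test. So were 2 of 8 T-cell markers and 0 of 5 Th1 markers tested, against 29.5% of all genes. Of 6 macrophage markers 2 reached 1 TPM, and Lyz2, Adgre1 and Itgam had 0 counts. The macrophage sum was 96.7 to 144 TPM and was carried by Csf1r, which overlaps an exon on the other strand, had 872, 71 and 1347 counts and was called between libraries. Without Csf1r the sum was 8.91 to 18.5 TPM. Of 5 natural killer markers 1 did, the overlapped Eomes, and the other 4 had 0 counts. Of 5 dendritic cell markers 1 did, with a sum of 1.00 to 1.82 TPM. That marker, Zbtb46, had 0.787, 1.82 and 0.519 TPM in replicates 1, 2 and 3, and a mean of 0.653 without replicate 2. Of the 2 CD8 markers, Cd8a had 0 counts and Cd8b1 had 14, 0 and 7 counts (2.28 TPM on average).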

How the data were processed

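RNA of 3 Th1 libraries was measured, 1 group without controls. Each deposited table gives raw, unnormalized counts of fragments on genes. Per the file headers the authors ran featureCounts 1.4.6-p4 on exons of GENCODE mouse release 13 (mm10), with both ends mapped and strand setting 1. Aligner and trimming: not given in the sources used here.

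Symbols came from GENCODE mouse release 21, and 50376 of 50600 genes matched. TPM was computed from counts and the deposited (other) exon length in bases, per the file headers. Overlaps were computed from the deposited exons. Pairs were tested with limma 3.58.1 on log2(TPM + 1) minus the reference gene in the same library, two-sided, for genes with a mean count of at least 10, adjusted by Benjamini-Hochberg over all genes of the fit (R 4.3.3). All ratios of a fit hold the same reference gene, so genes of a fit are not independent. The pairs were chosen for shared receptors or like roles. Differences between libraries used a chi-square test per gene with TMM from edgeR 4.0.16, an adjusted p under 0.05, a ratio of at least 2, and at least 3 counts assumed for the lowest library in that ratio. Intervals are exact Poisson at 95% and cover counting error only. Where nothing shows separate cultures or animals, p-values measure only the spread between these libraries. The rule that finds the members uses no measured value, but members, lists and rules were chosen with earlier results of these data known. Named genes were all members and list genes, overlapping or nearby genes (within 20000 bases), the 3 closest genes in level to Lta, Cd40lg and Tnf, and genes bearing on the counted strand. Some genes that this rule names are not reported here.

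Alternatives changed the TPM minimum, pseudocount, count filter, scaling (with DESeq2 1.42.0 size factors, among others) and libraries. On simulated data the chi-square procedure was tested on 11562 genes. It recovered 100% of genes changed 4-fold in replicate 1 and 100% changed 3-fold, with 11 false calls. Those counts held Poisson error only. Changes were placed in replicate 1 only, so the recovery of a change in the shallow replicate 2 was not tested. The ligands called in the main setting, Tnfsf10 and Tnfsf11, had their highest and lowest level, respectively, in replicate 2. Recovery was not given by count level, so these percentages do not show how often changes in genes with few counts are found.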

Additional observations from a re-analysis of the deposited data

How the results depend on the processing

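Leaving out replicate 2, the shallow library, changed the calls of pairs and ligands. Without it Fasl minus Tnfsf10 turned to 1.55 and Tnfsf11 minus Tnfsf10 reached 2.57. With a pseudocount of 5, Fasl minus Tnfsf10 was 0.0765. Over the libraries left out in turn, Fasl minus Tnfsf10 ranged from -1.30 to 1.55 and Tnfsf11 minus Tnfsf10 from 0.78 to 2.57. The 4 other pairs tested kept direction and side of the threshold under every alternative run. Cd40lg minus Cd70, fitted only without the count minimum, was not put through the other alternatives. Genes called between libraries, 3415 at first, were 1750 of 5137 tested (34.1%) at a mean count of at least 100 and 1074 of 6933 (15.5%) with no opposite-strand overlap. Leaving out 1 library gave 1332 of 11272 (11.8%, without replicate 3) to 1941 of 10804 (18%, without replicate 1). Ligands called were 1 of 6 tested (Tnfsf11) at a mean count of at least 100 and 0 to 2 of 9 leaving out 1 library. Without the count filter they were Cd70 and Tnfsf10, 2 of 10 tested against 18.3% of 19720 genes, and Tnfsf11 was not called. With no overlap and without replicate 2, a choice made after seeing the data, 382 of 7414 genes (5.15%) and 0 of 9 ligands were called. Genes lower than Fasl numbered 4369 without replicate 2, against 0. Genes lower than Tnfsf11, 2929 at first, were 11267 without the count filter, 85 without replicate 1, 7527 without replicate 2 and 454 without replicate 3. Genes lower than Lta, 11376 at first, were 19499 without the filter and 6877 with no overlap, and those lower than Cd40lg, 10543 at first, were 18631 and 6638, where the number of genes tested changed as well. Otherwise the cause was not tested. The count of ligands at the TPM minimum was 10 under all alternatives run. TPM over genes with no overlap was higher for each ligand, with 4656 for Lta, and TMM-scaled counts per kilobase, another unit, gave 770 for Lta. No paired analysis was possible because there is 1 group.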
